A study of Mus musculus with 10 samples.

Results

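The brush border digestive hydrolases are enzymes that sit in the apical membrane of absorptive cells of the intestine. The set described here held 9 genes, namely *Sis*, *Lct*, *Treh*, *Mgam*, *Anpep*, *Dpp4*, *Alpi*, *Enpep* and *Mep1a*. They were chosen by gene name from the 47069 genes of the deposited table, of which 26392 had at least 1 count in a library. All 9 passed the filter on low counts that left 16179 genes to be tested.

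RNA-seq was performed on mouse intestinal organoids, small epithelial structures grown from crypts in Matrigel, of strain C57BL/6. The mice carried *Lgr5-EGFP-CreERT2* and *Ppp2r1a* flox/flox, so that tamoxifen is meant to delete *Ppp2r1a*, the scaffold subunit of the phosphatase PP2A, only in cells that drive Cre from the *Lgr5* promoter. All cultures received Noggin, EGF and R-spondin-1 and were harvested at day 50, and the untreated controls carried the same alleles and received saline. The other groups received the carcinogen DMBA, in a set labelled long (DMBA), tamoxifen in a set labelled short (TAM short), tamoxifen in a set labelled long (TAM long), or both agents (DMBA+TAM), with 2 libraries in each of the 5 groups. What short and long stand for was not given in the sources used here. The library names begin with NS for control, NL for DMBA, DSS_S for TAM short, DSS_L for TAM long and Lgr5 for DMBA+TAM. The labels call the tamoxifen of the sets named DSS dosage-sensitive and do not spell out DSS, letters that the study's text uses for dextran sulfate sodium, so that these names do not match plain tamoxifen groups. The S and L that end the prefixes went with marker genes of gut segment: the summed level of 7 colon genes was 513 to 652 normalised CPM (counts scaled to corrected library totals) in control and TAM short and 3460 to 13000 in DMBA and TAM long, and that of 10 small intestine genes was 22900 to 45400 against 471 to 1110. Segment genes, this letter and the treatment therefore cannot be told apart in DMBA or TAM long against control or in TAM long against TAM short. Control and TAM short share the letter S, and DMBA and TAM long the letter L.

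The libraries held 8828247 to 10923673 counts on genes, except those of DMBA+TAM with 1592366 and 1915270. Levels are given as normalised CPM, with library totals corrected by TMM. A level of 3 counts, taken as the lowest that could be told from 0, stood for 0.259 to 0.379 normalised CPM, and for 1.58 and 1.32 in DMBA+TAM. Counts differed more between the DMBA libraries than between those of any other group, the chi-square over its degrees of freedom being 67.05 there and 5.57 to 23.2 elsewhere. *Ppp2r1a* itself was not lower in any group labelled as given tamoxifen than in control, at 126 ± 4.56 normalised CPM in control, 139 ± 11.9 in TAM short, 163 ± 8.09 in TAM long and 131 ± 2.63 in DMBA+TAM (SD, n = 2). Its counts are sums over all exons and do not separate the floxed ones. The DMBA+TAM libraries also stood apart in tissue markers: the summed level of 11 general epithelial genes was 42.2 and 28.2 normalised CPM there and 17400 to 25200 in the other 8 libraries, so that the defining genes of the labelled tissue were nearly absent.

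The last steps of digestion take place at the brush border, the carpet of microvilli on the enterocyte. Disaccharidases there split sugars into monosaccharides, peptidases trim peptides into amino acids and short peptides that transporters take up, and an alkaline phosphatase removes phosphate groups. These enzymes are used as signs of a mature enterocyte and their amounts change along the length of the gut.

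On the mouse genome build GRCm38 the 9 genes lie on 7 chromosomes, all annotated as protein coding. The disaccharidases are *Sis* (ENSMUSG00000027790, chromosome 3, 72888557 to 72967863, minus strand), *Lct* (ENSMUSG00000026354, chromosome 1, 128284756 to 128328318, minus strand), *Treh* (ENSMUSG00000032098, chromosome 9, 44673233 to 44686305, plus strand) and *Mgam* (ENSMUSG00000068587, chromosome 6, 40628831 to 40769123, plus strand). The peptidases are *Anpep* (ENSMUSG00000039062, chromosome 7, 79821803 to 79861059, minus strand), *Enpep* (ENSMUSG00000028024, chromosome 3, 129269175 to 129332720, minus strand), *Dpp4* (ENSMUSG00000035000, chromosome 2, 62330073 to 62412231, minus strand) and *Mep1a* (ENSMUSG00000023914, chromosome 17, 43474324 to 43502812, minus strand). The phosphatase is *Alpi* (ENSMUSG00000079440, chromosome 1, 87098002 to 87101606, minus strand).

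Because several members fell together, their promoters were compared. In the 250 bases before the RefSeq start of each gene (GRCm38.p6), the letters GTTAAT of HNF1, TTTATG of CDX and AGATAA of GATA factors, all regulators of enterocyte genes, were looked for on both strands. HNF1 letters were in 1 of 9 windows (*Sis*) and in 6.43% of 32841 windows of this length of all genes. CDX letters were in 2 (*Sis* and *Lct*) and in 10.8% of all windows, and GATA letters in 3 (*Lct*, *Mgam* and *Dpp4*) and in 9.99% of all windows. In *Sis* the CDX letters begin 43 bases before the start, and in *Lct* 31 bases before it. *Lct* has GATA letters 101 and 90 bases before its start, *Mgam* 208 and 66 and *Dpp4* 32 bases before. The 4 windows with a match are printed 5′ to 3′ on the strand of the gene, with the matched letters in capitals (those of the other strand appear as their complement). They lie at chr3:72967864-72968113 (*Sis*, minus strand), chr1:128328319-128328568 (*Lct*, minus strand), chr6:40628581-40628830 (*Mgam*, plus strand) and chr2:62412232-62412481 (*Dpp4*, minus strand).
Sis: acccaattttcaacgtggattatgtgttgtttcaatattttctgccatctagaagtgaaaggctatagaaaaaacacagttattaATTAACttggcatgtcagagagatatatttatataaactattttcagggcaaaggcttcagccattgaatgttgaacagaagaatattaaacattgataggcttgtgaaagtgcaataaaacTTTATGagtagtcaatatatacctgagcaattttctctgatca
Lct: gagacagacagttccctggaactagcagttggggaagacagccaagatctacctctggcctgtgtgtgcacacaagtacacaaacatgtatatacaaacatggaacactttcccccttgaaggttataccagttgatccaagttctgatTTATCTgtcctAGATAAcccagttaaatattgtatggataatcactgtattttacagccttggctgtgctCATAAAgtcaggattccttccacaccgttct
Mgam: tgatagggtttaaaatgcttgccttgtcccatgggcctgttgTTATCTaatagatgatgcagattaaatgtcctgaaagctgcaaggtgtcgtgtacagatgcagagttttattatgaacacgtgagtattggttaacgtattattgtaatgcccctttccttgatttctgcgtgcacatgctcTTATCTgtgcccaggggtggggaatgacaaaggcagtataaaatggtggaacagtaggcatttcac
Dpp4: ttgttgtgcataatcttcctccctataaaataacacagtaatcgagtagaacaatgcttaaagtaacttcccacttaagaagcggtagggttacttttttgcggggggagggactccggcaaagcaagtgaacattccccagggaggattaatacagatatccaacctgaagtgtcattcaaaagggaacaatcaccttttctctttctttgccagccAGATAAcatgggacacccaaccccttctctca

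The windows of *Treh*, *Anpep*, *Alpi*, *Enpep* and *Mep1a* held none of these letters. The *Anpep* window (chr7:79848211-79848460) lies inside the span of the gene given above, and only a single start per gene was searched.

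**Figure D1:**
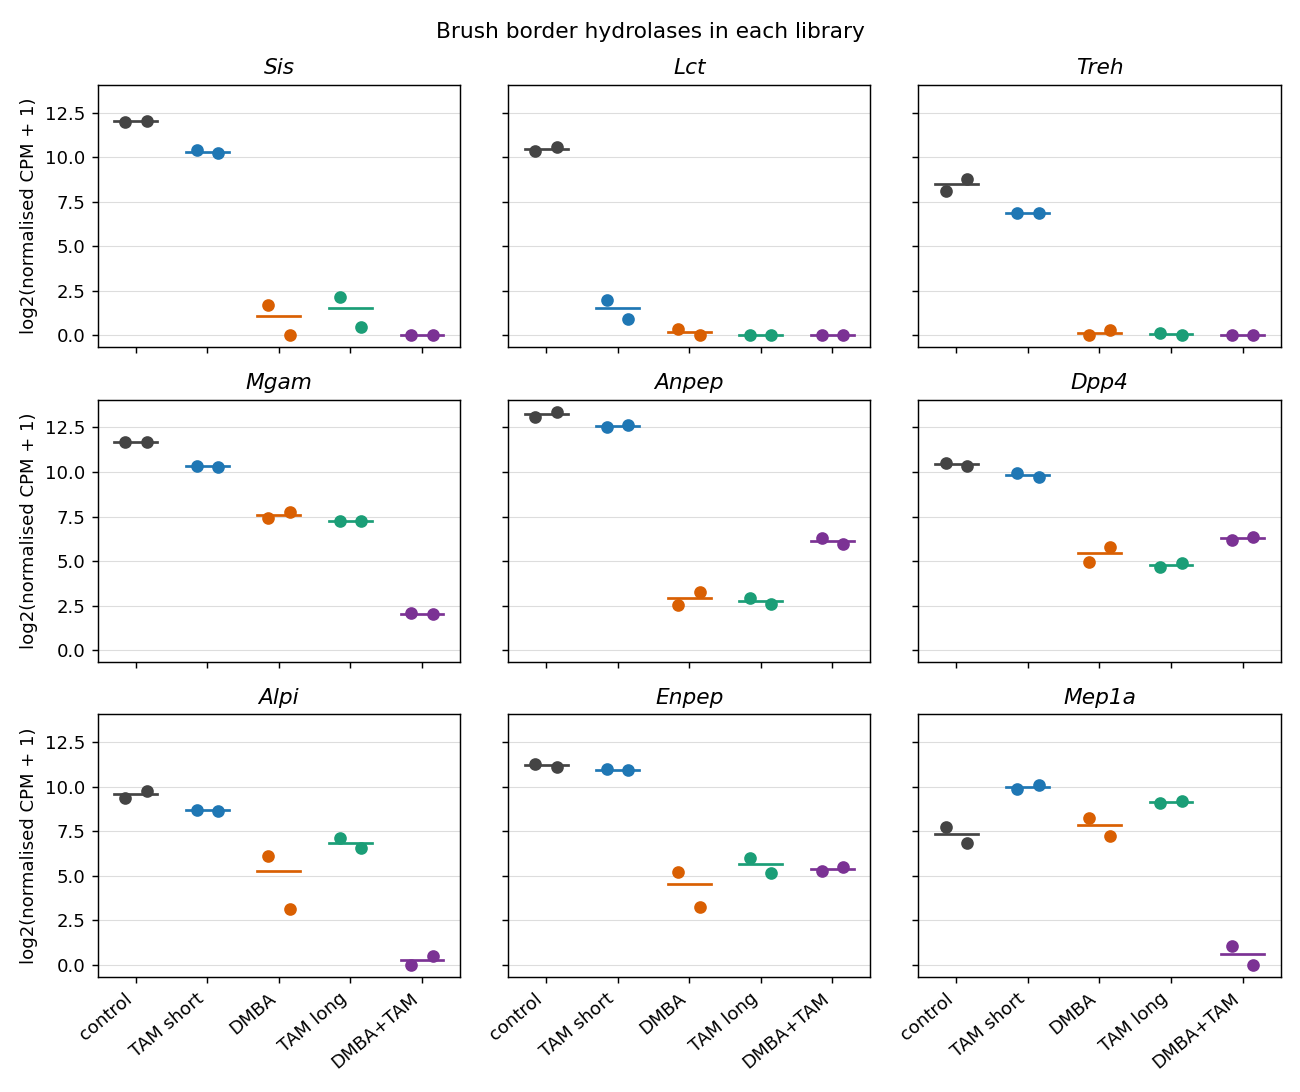
Level of each hydrolase, as log2 of normalised CPM plus 1, in every library (points) of the 5 groups, with the line at the group mean. For 8 of the 9 genes the control libraries are the highest, while *Mep1a* is highest in TAM short.

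*Sis*, *Lct* and *Treh* went from a high level in control to a few counts or none in DMBA, TAM long and DMBA+TAM, while *Mgam* kept a measurable level in DMBA and TAM long. In bulk RNA, fewer cells of a type and less RNA per cell cannot be told apart. *Sis* encodes sucrase-isomaltase, which splits sucrose and the branch points of starch. It had 4100 and 4230 normalised CPM in control, 1340 and 1210 in TAM short, 2.32 and 0 in DMBA, 3.45 and 0.393 in TAM long, and 0 in both DMBA+TAM libraries. The DMBA value rests on 26 counts in a single library, and the TAM long value on 40 and 4 counts. Control lay above every other library. Against control the log2 fold change was -11.68 in DMBA (SE 0.99, edgeR adjusted p = 3.02e-05) and -11.03 in TAM long (SE 0.96, edgeR adjusted p = 3.41e-05). Without DMBA replicate 1 no count was left in DMBA, and without DMBA replicate 2 the value was -10.80. Leaving out TAM long replicate 1 or replicate 2 gave -13.31 or -10.26. No count was left in DMBA+TAM, at least 2870-fold lower than control. In TAM short the log2 fold change was -1.70 (SE 0.62, 95% confidence interval -3.11 to -0.29) and missed the threshold in the model over all libraries (edgeR adjusted p = 0.106), but it passed when only the control and TAM short libraries were fitted (-1.65, edgeR adjusted p = 1.5e-07).

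*Lct* encodes lactase, the enzyme of milk sugar. It was the only member to fall to near the lowest measurable level in TAM short as well. Its level was 1280 and 1550 normalised CPM in control, 3.05 and 0.883 in TAM short, and 0.268 and 0 in DMBA, with 0 in the TAM long and DMBA+TAM libraries. The TAM short values are 27 and 7 counts, set against 11317 and 12909 in control. This is a log2 fold change of -9.45 (SE 0.48, edgeR adjusted p = 3.59e-05), or -10.62 and -8.85 without TAM short replicate 1 and 2. In DMBA the 3 counts of the group made the level 9470-fold lower than in control, with a 95% counting interval of 3240 to 45900 (edgeR adjusted p = 3.15e-06). All 3 were in DMBA replicate 1, and without DMBA replicate 2 the fitted log2 value of -13.08 became -12.29. The bounds were at least 5120-fold lower in TAM long and at least 976-fold lower in DMBA+TAM, where fewer counts limit what can be seen.

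*Treh* encodes trehalase, which splits trehalose, a sugar of fungi and insects. The control libraries had 269 and 438 normalised CPM, both TAM short libraries 118, and the remaining 6 libraries at most 0.225. Those 6 held 3 counts of *Treh* in all. The change in TAM short was -1.58 (SE 0.26, edgeR adjusted p = 0.00445), and without TAM short replicate 2 it was -1.59 and missed the threshold (edgeR adjusted p = 0.0598). By limma on log2(FPKM + 0.1) it was -1.45 and also missed it (adjusted p = 0.0792). The level was 3530-fold lower than in control in DMBA (counting interval 976 to 29100), 7640-fold lower in TAM long (1370 to 302000) and at least 243-fold lower in DMBA+TAM. A single library held the counts of each group, DMBA replicate 2 and TAM long replicate 1. The fitted log2 values of -11.58 in DMBA and -12.49 in TAM long became -10.54 without DMBA replicate 1 and -11.78 without TAM long replicate 2, and without the libraries that held the counts none was left to compare.

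*Mgam* encodes maltase-glucoamylase, the relative of sucrase-isomaltase that releases glucose from the ends of starch chains. It had 3330 normalised CPM in each control library, 1310 and 1240 in TAM short, 170 and 212 in DMBA, 149 and 154 in TAM long, and 3.17 and 3.08 in DMBA+TAM. No group overlapped another. The log2 fold changes against control were -1.38 in TAM short (SE 0.14, edgeR adjusted p = 0.000244), -4.12 in DMBA (SE 0.16, edgeR adjusted p = 1.98e-07), -4.46 in TAM long (SE 0.16, edgeR adjusted p = 1.42e-07) and -10.05 in DMBA+TAM (SE 0.22, edgeR adjusted p = 5.11e-09). The DMBA+TAM level rests on 6 and 7 counts.

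The peptidases did not move as one. *Anpep*, *Enpep* and *Dpp4* had log2 fold changes against control of -0.67, -0.23 and -0.60 in TAM short, none of them called. They were far lower in DMBA and TAM long. In DMBA+TAM they were the members with the most counts. *Mep1a* took the opposite course and was higher in both tamoxifen sets than in control and near 0 in DMBA+TAM.

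*Anpep* encodes aminopeptidase N, which removes neutral amino acids from the ends of peptides. It had 8840 and 10700 normalised CPM in control, 5810 and 6430 in TAM short, 4.91 and 8.54 in DMBA, 6.73 and 5.01 in TAM long, and 77.6 and 60.4 in DMBA+TAM. DMBA and TAM long overlapped each other, and both DMBA+TAM libraries lay above them and below control. Against control its log2 fold change was -0.67 in TAM short (SE 0.24, edgeR adjusted p = 0.0925), -10.51 in DMBA (SE 0.36, edgeR adjusted p = 1.24e-07), -10.69 in TAM long (SE 0.36, edgeR adjusted p = 1.18e-07) and -7.15 in DMBA+TAM (SE 0.31, edgeR adjusted p = 5.45e-08). With only the compared libraries in the fit, the TAM short value was -0.62 and passed (edgeR adjusted p = 0.00202), as it did by DESeq2 (-0.68, adjusted p = 0.00731).

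*Enpep* encodes glutamyl aminopeptidase, which removes acidic amino acids and also acts on angiotensin peptides. Its levels were 2460 and 2230 normalised CPM in control, 2060 and 1920 in TAM short, 36.2 and 8.42 in DMBA, 62.4 and 35.1 in TAM long, and 37.0 and 44.5 in DMBA+TAM. The 3 groups other than control and TAM short spread over one range. In TAM short the log2 fold change was -0.23 (95% confidence interval -1.31 to 0.84, edgeR adjusted p = 0.803). It was -6.70 in DMBA (SE 0.62, edgeR adjusted p = 2.62e-05), -5.58 in TAM long (SE 0.59, edgeR adjusted p = 5.72e-05) and -5.84 in DMBA+TAM (SE 0.61, edgeR adjusted p = 1.69e-05). Without DMBA replicate 1 the DMBA value was -8.14, and without DMBA replicate 2 it was -6.02.

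*Dpp4* encodes dipeptidyl peptidase 4, which cuts dipeptides after proline and inactivates incretin hormones. It had 1470 and 1300 normalised CPM in control, 979 and 843 in TAM short, 30.4 and 54.1 in DMBA, 24.7 and 28.8 in TAM long, and 71.3 and 81.1 in DMBA+TAM. No group overlapped another. The log2 fold changes against control were -0.60 in TAM short (SE 0.23, edgeR adjusted p = 0.114, and 0.002 with only the compared libraries fitted), -5.04 in DMBA (SE 0.27, edgeR adjusted p = 1.07e-06), -5.69 in TAM long (SE 0.28, edgeR adjusted p = 6.29e-07) and -4.18 in DMBA+TAM (SE 0.27, edgeR adjusted p = 5.41e-07).

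*Mep1a* encodes the alpha subunit of meprin A, a metalloprotease that cuts proteins and larger peptides. It had 213 and 115 normalised CPM in control, 946 and 1080 in TAM short, 302 and 149 in DMBA, 551 and 584 in TAM long, and 1.06 and 0 in DMBA+TAM. DMBA overlapped control, and both tamoxifen sets lay above every library of these groups. The log2 fold change against control was 2.63 in TAM short (SE 0.38, edgeR adjusted p = 0.00171) and 1.79 in TAM long (SE 0.36, edgeR adjusted p = 0.00305), and 0.46 in DMBA (95% confidence interval -0.33 to 1.26, edgeR adjusted p = 0.312). By limma on log2(FPKM + 0.1) the values in TAM short and TAM long were 2.78 (adjusted p = 0.0805) and 2.18 (adjusted p = 0.0729) and missed the threshold. Without DMBA replicate 1 the DMBA value was -0.16, and without DMBA replicate 2 it was 0.88 and passed the threshold (edgeR adjusted p = 0.0367). In DMBA+TAM 2 counts were left, 344-fold lower than control (counting interval 95.2 to 2840, edgeR adjusted p = 4.97e-06).

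*Alpi* encodes intestinal alkaline phosphatase, which removes phosphate from lipids, nucleotides and bacterial lipopolysaccharide. Its levels were 657 and 853 normalised CPM in control, 409 and 401 in TAM short, 68.6 and 7.64 in DMBA, 138 and 92.1 in TAM long, and 0 and 0.441 in DMBA+TAM. The order of the groups had no overlap, although the DMBA libraries lay far apart. Against control the log2 fold change was -0.90 in TAM short (95% confidence interval -2.36 to 0.56, edgeR adjusted p = 0.409, and 0.000154 with only the compared libraries fitted), -4.30 in DMBA (SE 0.75, edgeR adjusted p = 0.00119) and -2.71 in TAM long (SE 0.69, edgeR adjusted p = 0.01). Without DMBA replicate 1 the DMBA value was -6.65, and without DMBA replicate 2 it was -3.46. Without TAM long replicate 2 the TAM long value was -2.47 and missed the threshold (edgeR adjusted p = 0.0695), and limma on log2(FPKM + 0.1) gave -2.41 (adjusted p = 0.071). DMBA+TAM held 1 count, 3130-fold lower than control (counting interval 562 to 124000). *Akp3*, a close relative of *Alpi*, had 38 and 37 counts in control and at most 1 elsewhere, and how reads shared by such relatives were counted is not given in the sources used here.

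**Figure D2:**
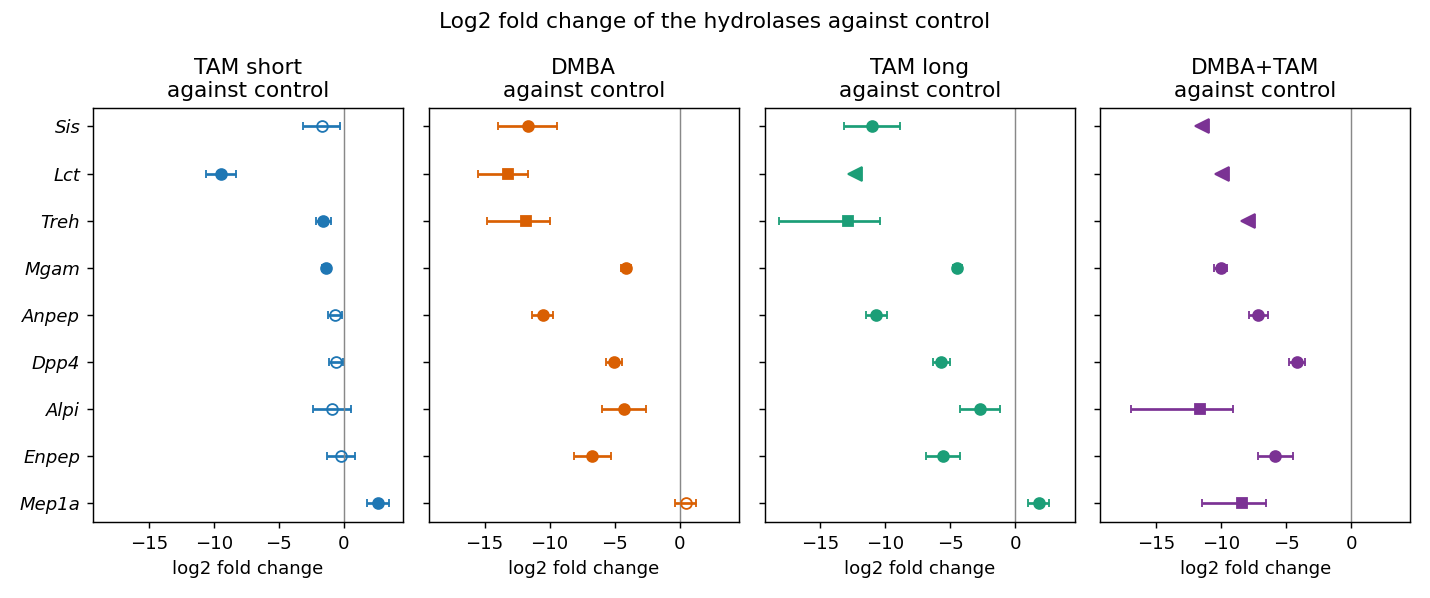
Log2 fold change against control of each hydrolase in the 4 treated groups. Circles with 95% confidence intervals are edgeR values (open where the adjusted p missed 0.05), squares are count ratios with 95% counting intervals where a group held 1 to 3 counts, and arrowheads mark the smallest fall that 0 counts allow; the falls of *Mgam* go from -1.38 to -10.05 while *Mep1a* lies right of 0 in TAM short and TAM long.

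Counted over the set, DMBA against control sets the carcinogen against saline, with a change of letter and of segment genes beside it. In DMBA 8 of 9 members were lower and none was higher, where 23.3% of all tested genes were lower and 24.5% higher. TAM long against control, where the letter changes too, had 8 lower and *Mep1a* higher, with 22.8% of all genes lower and 23.2% higher. TAM short against control, the comparison within the letter S, had 3 lower (*Lct*, *Treh* and *Mgam*) and *Mep1a* higher, with 7.8% lower and 6.52% higher. DMBA+TAM against control had all 9 lower, where 35.3% of all genes were lower and 29% higher. The median log2 fold change of the members was -0.90 in TAM short, -6.70 in DMBA and -5.69 in TAM long, and -8.36 in DMBA+TAM with members at 0 counts set to their bound (median over all genes -0.04, 0.07, 0.05 and -0.17). These comparisons share the control libraries.

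TAM long against TAM short, the tamoxifen sets set against each other, had 7 members lower and none higher, with 20.3% of all genes lower and 22% higher. *Lct* was among the 7 and missed the threshold by limma on log2(FPKM + 1) (-0.58, adjusted p = 0.0602). *Anpep* had a log2 fold change of -10.02 (SE 0.36, edgeR adjusted p = 2.45e-07), *Sis* of -9.32 (SE 0.91, edgeR adjusted p = 9.44e-05), or -11.61 and -8.55 without TAM long replicate 1 and 2, and *Mgam* of -3.07 (SE 0.15, edgeR adjusted p = 1.25e-06). *Alpi* at -1.81 (edgeR adjusted p = 0.0534) and *Mep1a* at -0.84 (edgeR adjusted p = 0.0842) missed the threshold. Of the segment and cell type lists, 8 of 10 small intestine genes and 4 of 6 immune genes were lower in TAM long, and 6 of 7 colon, 7 of 7 fibroblast, 8 of 8 smooth muscle and pericyte and 3 of 5 endothelial genes higher, and their part was not tested. *Alpi* and *Mep1a* passed with only the compared libraries fitted (edgeR adjusted p = 0.000451 for *Alpi* and 0.00162 for *Mep1a*). Both also passed with the replicate block (edgeR adjusted p = 0.0323 for *Alpi* and 0.0478 for *Mep1a*).

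Between TAM long and DMBA, the comparison within the letter L, edgeR called 0 members, where 1.46% of all genes were lower and 1.24% higher. With the replicate block it called *Mep1a* (log2 fold change 1.41, edgeR adjusted p = 0.0469) and 469 genes in all (437 without it). *Lct* and *Treh* had at most 3 counts in each of these libraries and were not compared. DESeq2 called 1 member, *Mep1a* (adjusted p = 0.00189), and 870 genes in all. The log2 difference, TAM long minus DMBA, was 1.33 for *Mep1a* (95% confidence interval 0.52 to 2.13, edgeR adjusted p = 0.0822), 1.58 for *Alpi* (0.07 to 3.10), 1.12 for *Enpep* (-0.01 to 2.25) and 0.65 for *Sis* (-1.62 to 2.92). It was -0.18 for *Anpep* (-0.81 to 0.46), -0.33 for *Mgam* (-0.64 to -0.03) and -0.66 for *Dpp4* (-1.19 to -0.12). Without DMBA replicate 1 the difference was 3.91 for *Alpi*, 2.53 for *Enpep*, 1.92 for *Mep1a* and -1.02 for *Dpp4*. Without DMBA replicate 2 it was 0.75 for *Alpi* and 0.43 for *Enpep*, so that the size of these differences rests on the DMBA library left out.

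Levels of members in DMBA+TAM differed from DMBA and from TAM long in both directions, in libraries with an epithelial sum of 42.2 and 28.2 against 17400 to 20400 normalised CPM. Tamoxifen or the carcinogen as the added agent cannot be told apart here from this difference in tissue or from the library names. Against DMBA, 2 of 9 members were higher (*Anpep* and *Dpp4*) and 3 lower (*Mgam*, *Alpi* and *Mep1a*). These counts were near the share of all genes, of which 25.2% were higher and 29.9% lower. *Anpep* was higher by 3.37 on the log2 scale (SE 0.28, edgeR adjusted p = 5.81e-06) and *Dpp4* by 0.85 (SE 0.25, edgeR adjusted p = 0.0141). The *Dpp4* value was 0.76 and missed the threshold without DMBA+TAM replicate 2 (edgeR adjusted p = 0.0762). *Mgam* was lower by 61.0-fold (log2 fold change -5.93, SE 0.21, edgeR adjusted p = 3.02e-08). The count ratio was 173-fold lower for *Alpi* (counting interval 31 to 6850), where the fitted log2 value of -7.23 became -4.89 and -8.07 without DMBA replicate 1 and 2, and 488-fold lower for *Mep1a* (135 to 4030), where that of -8.83 became -8.22 without DMBA replicate 1. Without DMBA+TAM replicate 1, which held no count of *Alpi*, its value was -6.39, and without DMBA+TAM replicate 2, which held none of *Mep1a*, that of *Mep1a* was -7.72. *Enpep* at 0.86 missed the threshold (95% confidence interval -0.34 to 2.06, edgeR adjusted p = 0.202) and passed without DMBA replicate 1 at 2.29 (edgeR adjusted p = 0.000363), with thinned counts at 1.34 (0.0353) and without the filter on low counts at 0.80 (1.8e-05). Without DMBA replicate 2 it was 0.18 (edgeR adjusted p = 0.653). For *Sis* no fold is given, since the 26 counts of DMBA replicate 1 stood against none at the lower depth of DMBA+TAM. It passed without the filter on low counts (edgeR adjusted p = 0.00517). *Lct* and *Treh* were at or under 3 counts in all 4 libraries.

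Set against TAM long, the same members were called in the same directions. Their counts were again near the share of all genes, of which 25.3% were higher and 29.9% lower. *Anpep* was higher by 3.54 (SE 0.29, edgeR adjusted p = 3.94e-06) and *Dpp4* by 1.51 (SE 0.25, edgeR adjusted p = 0.000577). *Mgam* was lower at -5.60 (SE 0.21, edgeR adjusted p = 3.39e-08), *Alpi* 486-fold by its count ratio (counting interval 87.1 to 19200) and *Mep1a* 1180-fold (326 to 9740). The fitted log2 value of *Alpi* went from -8.82 to -7.97 without DMBA+TAM replicate 1, and that of *Mep1a* from -10.16 to -9.04 without DMBA+TAM replicate 2. Without the DMBA+TAM library that held the 1 or 2 counts, none was left. *Enpep* at -0.26 (95% confidence interval -1.44 to 0.92) was not called, and it was at 0.22 without TAM long replicate 1. *Sis*, with 40 and 4 counts in TAM long against none in DMBA+TAM, was not called either (edgeR adjusted p = 0.2). It passed with counts thinned to the smallest library (edgeR adjusted p = 0.0362) and without the filter on low counts (edgeR adjusted p = 0.00029). Both comparisons use the DMBA+TAM libraries.

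Against TAM short all 9 members were lower in DMBA+TAM, where 33.8% of all genes were lower and 29.3% higher. The log2 fold change was -8.67 for *Mgam* (SE 0.22, edgeR adjusted p = 6.11e-09), -6.47 for *Anpep* (SE 0.31, edgeR adjusted p = 8.25e-08) and -3.58 for *Dpp4* (SE 0.26, edgeR adjusted p = 1.41e-06). For *Lct* the bound was at least 1.35-fold lower (edgeR adjusted p = 0.038), a call lost without TAM short replicate 1 (adjusted p = 0.0682), without DMBA+TAM replicate 1 (0.109) or replicate 2 (0.136), and with scaling by library size only (0.0611). With only the compared libraries fitted *Lct* did not pass the filter on low counts, and the other 8 members were called.

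The hydrolases were also set against the epithelial RNA of each library. The summed level of 11 general epithelial genes was 19500 and 20300 normalised CPM in control, 24600 and 25200 in TAM short, 17800 and 17400 in DMBA, and 18400 and 20400 in TAM long, with 42.2 and 28.2 in DMBA+TAM. Divided by this sum, the summed level of the 9 hydrolases was 1.16 and 1.22 in control, 0.528 and 0.525 in TAM short, 0.0346 and 0.0253 in DMBA, and 0.0509 and 0.0441 in TAM long. Relative to control the ratio was 0.443 in TAM short, 0.0252 in DMBA and 0.0400 in TAM long. Of the single members only *Mep1a* had a higher mean ratio than in control, at 4.91, 1.55 and 3.54 times. The hydrolase sum itself was 615 and 441 normalised CPM in DMBA and 935 and 900 in TAM long against 22600 and 24700 in control. With brush border structure genes as the divisor the ratios to control were 0.599, 0.0802 and 0.119, and that of DMBA+TAM was 1.16 in place of 4.72 with the epithelial genes.

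In DMBA+TAM the hydrolase sum of 190 and 189 normalised CPM exceeded the epithelial sum, giving ratios of 4.50 and 6.72. *Dpp4* alone was at 32.8 times its control ratio, *Enpep* at 10.4 times and *Anpep* at 4.06 times, and *Mgam* at 0.551 times. Fibroblast genes moved with this group, with 7 of 7 higher than in control and a summed level of 30700 and 31600 normalised CPM against 619 to 2010 in the other libraries. Endothelial genes had 5 of 5 higher (557 and 555 against 58.8 to 107). Immune genes had 4 of 6 higher and 1 lower (1160 and 1090 against 54.9 to 161), with the T cell gene *Cd3e* at 0. Smooth muscle and pericyte genes had 4 of 8 higher and 2 lower (1610 and 1930 against 1750 and 2080 in control). None of the defining genes of fibroblasts or endothelium was at 0 in any library. The part of these cells in the levels of *Anpep*, *Dpp4* and *Enpep* was not tested.

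**Figure D3:**
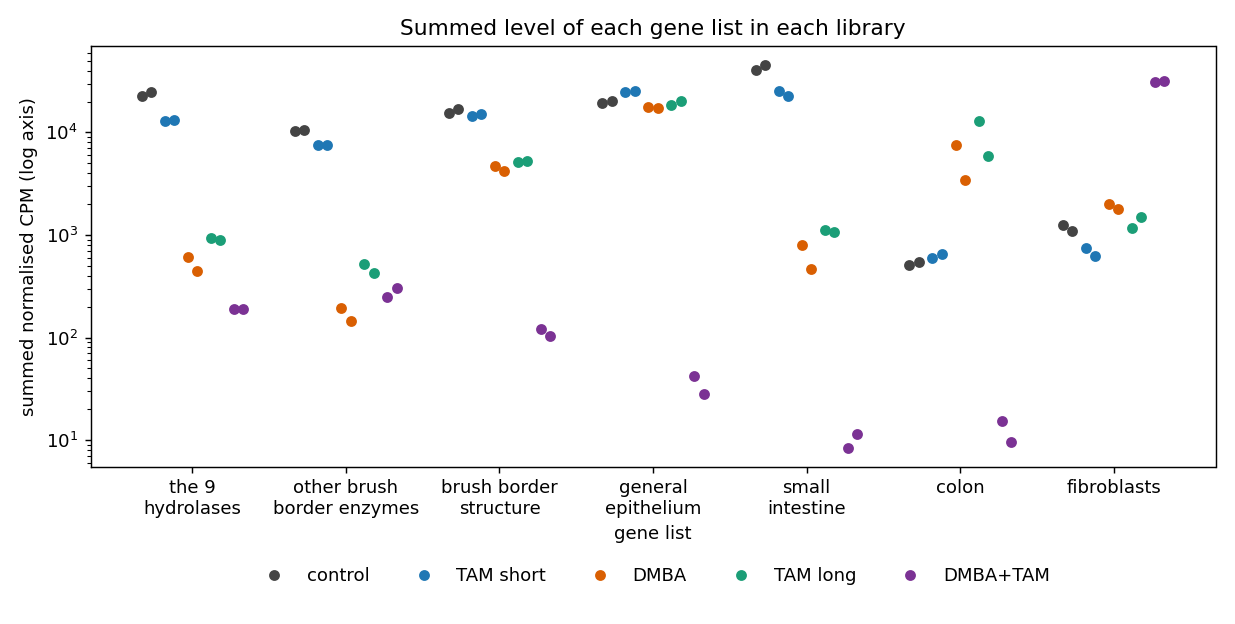
Summed normalised CPM (log axis) of the 9 hydrolases and of 6 marker lists in every library, 1 point a library. In DMBA and TAM long the hydrolases are low beside general epithelial genes at 17400 to 20400, and in DMBA+TAM the epithelial sum is 42.2 and 28.2 beside fibroblast sums of 30700 and 31600.

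Genes of gut segment moved along the same line as the hydrolases. The small intestine list of 10 genes had 8 lower than control in DMBA and 8 in TAM long, with none higher, and their summed level was 791 and 471, and 1110 and 1060 normalised CPM, against 40400 and 45400 in control. Of 7 genes of the colon 7 were higher in DMBA and 6 in TAM long, with summed levels of 7490 and 3460, and 13000 and 5910, against 513 and 540 in control. *Car1*, a carbonic anhydrase of the colon named after its values were seen, had no count in control and 68145 and 10194 counts in DMBA. Smooth muscle and pericyte genes were higher too, 7 of 8 in DMBA and 6 of 8 in TAM long, with summed levels of 5650 to 10200 against 1750 and 2080. Fibroblast genes had 5 of 7 higher in DMBA (2010 and 1810 against 1260 and 1090 in control), and 3 higher and 1 lower in TAM long (1160 and 1490). Of 5 endothelial genes 2 were higher, and of 6 immune genes 2 lower, in each of these groups. The part of the muscle, fibroblast, endothelial and immune genes in the lower hydrolases was not tested, and the segment genes cannot be told apart from the groups, since the lists divide the libraries as the letters S and L do.

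In TAM short 7 of the 10 small intestine genes were lower and 2 higher than in control, with sums of 25600 and 22900, and of the colon genes 1 was higher and none lower. The higher ones were *Fabp6*, an ileal bile acid binding protein (log2 fold change 12.38, SE 0.74, edgeR adjusted p = 1.67e-05), and *Slc10a2*, the ileal bile acid transporter (5.92, SE 1.48, edgeR adjusted p = 0.0303), both named after their values were seen. Their counts were 69451 and 71046, and 2058 and 2643, against 25 and 2, and 52 and 28 in control. Fibroblast genes had 4 of 7 lower (741 and 619 against 1260 and 1090), endothelial genes 1 of 5 lower, and immune genes 2 of 6 higher (161 and 154 against 57.6 and 95.9), while none of 8 smooth muscle and pericyte genes passed. These moved beside the lower *Lct*, *Treh* and *Mgam* and the higher *Mep1a*, and their relation to them was not tested.

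Other enzymes of the brush border, 12 of 13 of which were tested, fell with the members. All 12 were lower than in control in each of DMBA, TAM long and DMBA+TAM (medians -6.99, -6.04 and -5.36, the last with bounds). In TAM short 6 were lower, 6 did not pass the threshold and none was called higher (median -1.71). Not called there was *Naaladl1*, named after its values were seen, at 2420 and 2910 normalised CPM against 719 and 430 in control. *Enpp7*, an intestinal sphingomyelinase, had 6483 and 4692 counts in control and none in DMBA or TAM long, at least 2150-fold and 2340-fold lower. In TAM short it fell by 3.56 on the log2 scale (SE 0.53, edgeR adjusted p = 0.00662), with 752 and 199 counts in libraries that lay far apart. *Mme*, the endopeptidase neprilysin, fell by 11.42 in TAM long (SE 0.40, edgeR adjusted p = 1.3e-07), where it had 7 and 1 counts against 8590 and 9244 in control. *Akp3* was 73.4-fold lower in TAM short by its 1 count (counting interval 12.8 to 2940). *Mep1b*, the beta subunit of meprin and partner of *Mep1a*, had 15119 and 13863 counts in control and none in DMBA+TAM, at least 1160-fold lower. It had 1710 and 1670 normalised CPM in control, 1660 and 1710 in TAM short, 129 and 94.7 in DMBA and 330 and 342 in TAM long, so that it did not take the course of *Mep1a*. *Tmprss15*, the enteropeptidase gene, was too low to be tested.

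The median change of structure genes of the microvillus was smaller than that of the members in 3 groups and not in DMBA+TAM. In DMBA 14 of 15 were lower (median -1.56) and in TAM long 13 (median -1.37), against member medians of -6.70 and -5.69. In TAM short 3 were lower and 2 higher (median -0.18, members -0.90). In DMBA+TAM all 15 were lower, with a median of -8.81 against -8.36 for the members, both with genes at 0 counts set to their bound. *Pdzk1*, a scaffold for transporters, went from 1145 and 839 counts in control to 1 and 2 in DMBA, 775-fold lower (counting interval 265 to 3760), and to none in TAM long, at least 416-fold lower. *Pls1*, which bundles actin, fell by 2.66 in DMBA (SE 0.17, edgeR adjusted p = 2.6e-06), and *Cobl*, an actin nucleator, fell by 2.74 in TAM long (SE 0.13, edgeR adjusted p = 5.5e-07). *Tmigd1*, an adhesion molecule, rose by 3.03 in TAM short (SE 0.52, edgeR adjusted p = 0.00461), where *Myo7b*, a motor protein of the microvillus tip, fell by 1.00 (SE 0.21, edgeR adjusted p = 0.0143). *Myo7b* and *Anks4b*, partners in the links between microvilli, had no count in DMBA+TAM and were at least 478-fold and 204-fold lower.

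Among 10 transcription factors of enterocytes, 5 were lower and 2 higher in DMBA, 7 lower and 2 higher in TAM long, 2 lower and 2 higher in TAM short, and 9 lower in DMBA+TAM. *Gata4*, a factor of the upper small intestine, had 136 and 153 normalised CPM in control, 36.9 and 13.6 in TAM short, 2.23 and 0.112 in DMBA, 2.85 and 0.983 in TAM long and 0 in DMBA+TAM. Against control this was -2.51 on the log2 scale in TAM short (SE 0.55, edgeR adjusted p = 0.0175), -6.82 in DMBA (SE 0.74, edgeR adjusted p = 0.00012) and -6.20 in TAM long (SE 0.70, edgeR adjusted p = 0.000157), and it was at least 99.4-fold lower in DMBA+TAM. *Hnf4g* fell by 4.23 in DMBA (SE 0.20, edgeR adjusted p = 1.37e-06) and was at least 242-fold lower in DMBA+TAM, and *Maf* fell by 3.81 in TAM long (SE 0.17, edgeR adjusted p = 3.98e-07). *Prdm1*, which holds back the adult gene programme in the fetal gut, rose by 1.27 in TAM short (SE 0.19, edgeR adjusted p = 0.00215).

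Of the 11 general epithelial genes 5 were higher and 3 lower in DMBA, 4 higher and 3 lower in TAM long, 3 higher in TAM short and all 11 lower in DMBA+TAM. *Phgr1*, a gene of gut epithelium, rose by 1.71 in DMBA (SE 0.12, edgeR adjusted p = 5.24e-06), 2.84 in TAM long (SE 0.13, edgeR adjusted p = 3.91e-07) and 1.99 in TAM short (SE 0.12, edgeR adjusted p = 1.86e-05). The factor *Elf3* rose by 1.32 in TAM short (SE 0.13, edgeR adjusted p = 0.000252). *Krt20*, a keratin of mature cells, changed by -1.42 in DMBA (SE 0.32, edgeR adjusted p = 0.00493), -1.06 in TAM long (SE 0.32, edgeR adjusted p = 0.0203) and -10.11 in DMBA+TAM (SE 0.52, edgeR adjusted p = 1.31e-07). The DMBA+TAM value of *Krt20* rests on 11 and 1 counts. *Epcam*, an adhesion molecule of epithelia, was left with 3 and 3 counts in DMBA+TAM, 1750-fold lower (counting interval 803 to 4760).

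Per length of transcript, the make-up of the hydrolase pool differed between the groups. In FPKM, which divides counts by length and library total, *Anpep* was the highest member in control at 5120 ± 561 FPKM (SD, n = 2) and in TAM short at 3420 ± 240, with 52.7% and 54.0% of the summed FPKM of the 9 genes. *Sis* followed in control at 1020 ± 0.979 FPKM, then *Enpep* at 931 ± 87.5, *Mgam* at 906 ± 22.1 and *Dpp4* at 860 ± 93.2. The steps from *Enpep* to *Mgam* and from *Mgam* to *Dpp4* were smaller than the SD of *Enpep* or *Dpp4*. *Lct* at 352 ± 40 and *Alpi* at 272 ± 43.8 came next, and *Treh* at 179 ± 56.2 and *Mep1a* at 83.7 ± 37.3 were the lowest. *Mep1a* rose from 0.861% of the pool in control to 8.65% in TAM short, 52.8% in DMBA and 70.2% in TAM long, where it was the highest member at 145 ± 81.7 and 360 ± 11.1 FPKM. In DMBA *Mgam* took 23.2% and *Dpp4* 11.6%, and in TAM long *Alpi* took 10.1% and *Mgam* 10%. In DMBA+TAM *Dpp4* (46.9%), *Anpep* (35.9%) and *Enpep* (16%) made up nearly all of it. The deposited FPKM divide by a length shorter than the listed one for 8 of the 9 members (1361 against 5268 bases for *Dpp4*). With the listed length the order changed. *Anpep* led *Dpp4* in DMBA+TAM, *Dpp4* went from rank 3 to rank 7 in TAM short, *Alpi* passed *Dpp4* in DMBA, and *Alpi* passed *Dpp4* and *Lct* in control.

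**Figure D4:**
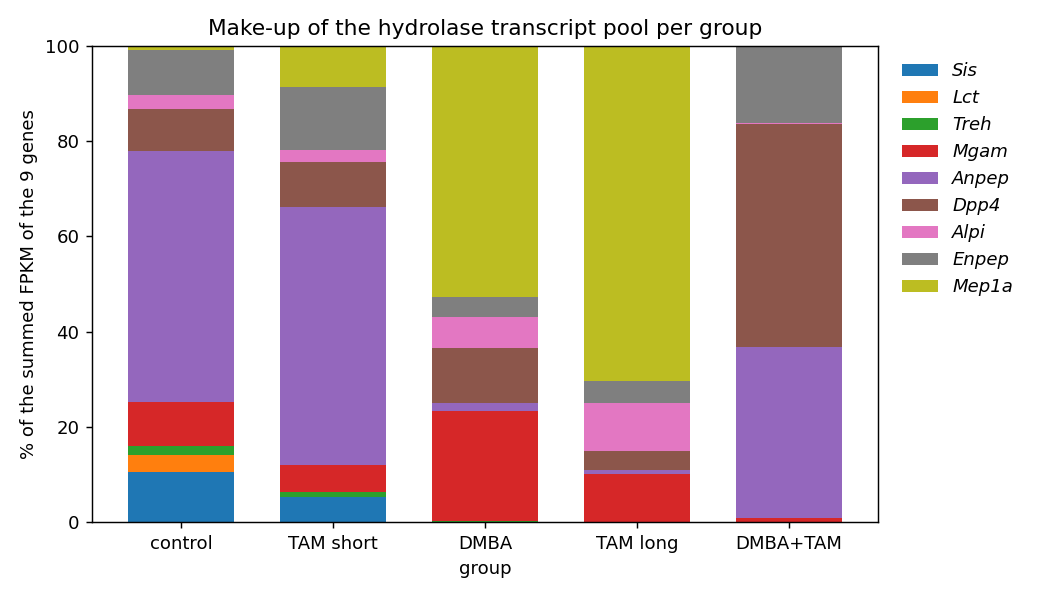
Share of each gene in the summed FPKM of the 9 hydrolases, per group (mean of 2 libraries). *Anpep* holds 52.7% in control and 54.0% in TAM short, *Mep1a* 52.8% in DMBA and 70.2% in TAM long, and *Dpp4* with *Anpep* and *Enpep* nearly all in DMBA+TAM.

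Members were also compared by the shape of their levels over the 10 libraries, as a description, since the points share library, depth and group. On log2 normalised CPM, Pearson's r was 0.99 between *Anpep* and *Dpp4*, 0.97 between *Sis* and *Treh* and between *Sis* and *Enpep*, and 0.95 between *Anpep* and *Enpep*. *Mep1a* was least like the others, with r of 0.15 to *Anpep*, 0.19 to *Lct* and 0.21 to *Dpp4*, and most like *Alpi* (0.85) and *Mgam* (0.81). Among 16170 other genes, the closest to each member were *2010001E11Rik* for *Sis* (r = 0.9937), *Slc28a1* for *Lct* (0.9964), *G6pc* for *Treh* (0.9979), *Galm* for *Mgam* (0.9965), *Lyz1* for *Anpep* (0.9972), *Slc7a7* for *Dpp4* (0.9949), *Hkdc1* for *Alpi* (0.9941), *Slc2a9* for *Enpep* (0.9935) and *Ccdc71l* for *Mep1a* (0.9912).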

How the data were processed

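Poly-A RNA of 10 organoid libraries was sequenced. Raw counts per gene, deposited by the authors, came from HTSeq after mapping with TopHat to build GRCm38.p6, and the deposited FPKM were computed by the authors from these counts and a gene length. The strand setting and the annotation release are not given in the sources used here. Counts (47069 genes; 5 broken lines of the table left out) entered a single quasi-likelihood model of edgeR 4.0.16 (R 4.3.3) in which each of the 5 groups had its own mean over all 10 libraries, after filterByExpr and TMM scaling (factors 0.832 to 1.19), with Benjamini-Hochberg adjustment over all 16179 genes tested, with a threshold of 0.05. This gave 9 comparisons, with DMBA+TAM set against each other group. An adjusted p in the text is from this test unless DESeq2 or limma is named. SE is the standard error of a log2 fold change, and intervals are at 95%. A group with no count in any library was set to 3 counts per library for a bound, and a group with counts but at most 3 in each library is given as a ratio of pooled counts with an exact binomial interval; both cover counting error only, since PCR copies were not marked. Nothing in the labels says that replicates came from separate animals or cultures, so p-values measure the spread between these libraries, which may be technical, and 2 libraries against 2 cannot give an exact permutation p below 0.33.

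The members and all gene lists were chosen with earlier results of these data known. Besides the 9 members, the text names from 4 lists (other brush border enzymes, brush border structure, enterocyte transcription factors, general epithelium) the 2 genes with the largest called change in each comparison with control, and for each member the gene of the highest r on log2 normalised CPM. Promoters are from RefSeq, and 9 of 9 members matched. The alternatives tried were no filter, library size without TMM, DESeq2 1.42.0, the replicate block, only the compared libraries, a minimum log2 fold change of 1, limma 3.58.1 (log2(FPKM + 1) and log2(FPKM + 0.1), trended), counts thinned to the smallest library, and leaving out each library. The procedure was tested on simulated data, and no result of that test is given here. The p-values and fold changes in the authors' own comparison columns were not used. Figures were made with Python 3.11.15 and matplotlib 3.10.9. Protein sequences were not analysed here, and some genes that the naming rule would give are not reported here.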

Additional observations from a re-analysis of the deposited data

Results flagged for a closer look

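For 4 members the same agent went with opposite directions in the presence and absence of the other agent, with no overlap between the libraries of either comparison. The difference between the comparisons was not tested, and the share of all genes that meet this rule is not given here. In DMBA+TAM against DMBA 25.2% of all genes were higher and 29.9% lower. *Anpep* had a log2 fold change of -10.69 in TAM long and -0.67 in TAM short against control, but 3.37 in DMBA+TAM against DMBA. The TAM short value was not called (edgeR adjusted p = 0.0925). With the agents exchanged *Anpep* was at -10.51 in DMBA against control and 3.54 in DMBA+TAM against TAM long. *Dpp4* had -5.69 (TAM long) and -0.60 (TAM short) against control and 0.85 in DMBA+TAM against DMBA, and likewise -5.04 in DMBA against control and 1.51 in DMBA+TAM against TAM long. Its TAM short value was not called (edgeR adjusted p = 0.114), and the 0.85 became 0.76 without DMBA+TAM replicate 2. *Enpep* was at -5.58 in TAM long and -0.23 in TAM short against control and at 0.86 in DMBA+TAM against DMBA. Of these only the first was called, and the last was 2.29 and 0.18 without DMBA replicate 1 and 2. For the last, the nearest libraries were at 37.0 (DMBA+TAM) and 36.2 (DMBA) normalised CPM. *Mep1a* was the reverse case, at 1.79 in TAM long and 2.63 in TAM short against control and at -8.83 in DMBA+TAM against DMBA. The general epithelial sum was 42.2 and 28.2 normalised CPM in DMBA+TAM and at least 17400 in every other library, and its part in these values was not tested.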

How the results depend on the processing

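Over the 9 comparisons no called fold change of a member changed sign under an alternative. Of the members' values, 913 kept their side of the threshold without a change of sign (among them *Sis* in DMBA+TAM against DMBA, at 0 without DMBA replicate 1, where neither group had a count left), 37 newly passed it, 13 lost it and 8 changed sign, each of them past the threshold in neither fit. In DMBA against control *Mep1a* (0.46) ranged from -0.16 to 0.98 when a library was left out, and was below 0 without DMBA replicate 1. In DMBA+TAM against TAM long *Enpep* (-0.26) was at 0.09 with thinned counts and ranged from -0.60 to 0.22, above 0 without TAM long replicate 1. In TAM long against DMBA *Sis* (0.65) ranged from -1.63 to 6.93, at -1.63 without TAM long replicate 1 and -0.22 without DMBA replicate 2. *Anpep* (-0.18) was at 0.65 with thinned counts and ranged from -0.53 to 0.26, at 0.01 without TAM long replicate 2 and 0.26 without DMBA replicate 2. Scaling by library size alone moved the median log2 fold change of all genes from -0.17 to 0.31 in DMBA+TAM against control and from 0.07 to 0.38 in DMBA against control, and under it the only change to a member's call was the loss of *Lct* in DMBA+TAM against TAM short (adjusted p = 0.0611). Low depth limits DMBA+TAM most. The causes of the changes below were not tested.

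For TAM short against control the 4 members called became 8 without the filter on low counts, 8 with only the compared libraries and 2 by limma on log2(FPKM + 0.1), and 3 to 4 when a library was left out. For TAM long against DMBA the 0 members became 1 by DESeq2, 4 without the filter, 1 with the replicate block, and 0 to 4 when a library was left out.

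Over all genes, thinned counts called 1822 genes for DMBA against control (7735 before), 1795 for TAM long (7444), 330 for TAM short (2317) and 4601 for DMBA+TAM against control (10396). With DMBA+TAM as the first group they called 4359 against TAM short (10207), 3319 against DMBA (8917) and 3436 against TAM long (8924), and for TAM long 1358 against TAM short (6835) and 25 against DMBA (437). A minimum log2 fold change of 1 left 4395 genes for DMBA, 4221 for TAM long and 1172 for TAM short against control, 3919 for TAM long against TAM short and 221 against DMBA. With only the compared libraries there were 4317 for TAM short against control and 29 for TAM long against DMBA. The latter count was 870 by DESeq2, 1615 without the filter, 290 by limma on log2(FPKM + 1) and 199 on log2(FPKM + 0.1). Leaving out a library gave 748 to 1161 for TAM short against control, 4467 to 5232 for TAM long against TAM short and 70 to 1027 for TAM long against DMBA.

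The ratio of hydrolases to epithelium relative to control, with the brush border structure list as divisor, became 0.0802 in DMBA (0.0252 before), 0.599 in TAM short (0.443), 0.119 in TAM long (0.0400) and 1.16 in DMBA+TAM (4.72). With sums of FPKM it was 0.477 in TAM short.

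Replicate numbers were not stated to pair libraries, and deviations of same-numbered libraries correlated at -0.04 to 0.26. The replicate block called 9 members for TAM long against TAM short (7 without it) and 1 for TAM long against DMBA, and changed no other member's call. Under the block *Alpi* (adjusted p = 0.0323) and *Mep1a* (0.0478) passed in the former and *Mep1a* (0.0469) in the latter, and over all genes it gave 7632 for DMBA against control. Where a treated library left out takes the last counts with it, the fitted value has no bound: without DMBA+TAM replicate 1 the *Mep1a* value against control was -13.48 and without replicate 2 -7.27, and *Alpi* was at -10.70 and -15.68.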
